A study of Mus musculus with 18 samples.

Results

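The mouse genes numbered Zfp700 to Zfp999 are a block of numbered zinc finger genes, and their messenger RNA was measured here in CD8 T cells of the spleen from mice on 3 diets. The members were all rows of the deposited count tables whose gene is protein coding in the GENCODE M21 annotation, with a symbol of Zfp and exactly 3 digits in the range Zfp700 to Zfp999, which gave 128 of 56748 rows. The family was singled out because Zfp707, Zfp738 and Zfp747 stood out by their levels in these same libraries, so diet differences of those 3 genes are given below as a description and carry no test. The remaining members were chosen by name and not by level.

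The study asked whether a period of high fat feeding leaves a lasting mark on CD8 T cells, the lymphocytes that kill infected and malignant cells. The libraries came from wild-type (WT) mice, and each group held 6 libraries of cells isolated fresh from the spleen. The switched group (SW) was fed high fat food during the first 6 weeks and normal food during the last 6 weeks, the HFD group ate the high fat diet for 12 weeks, and the ND group ate the normal diet for 12 weeks. The labels give neither the strain nor the age of the mice, nor whether the 6 libraries of a group came from separate mice, so p-values measure the spread between these libraries, which may be technical in part.

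Most proteins with this kind of name carry an array of C2H2 zinc fingers, in which a pair of cysteines and a pair of histidines hold a zinc ion, and neighbouring fingers together read a stretch of DNA. Many also carry a KRAB domain, which recruits Trim28 (also called KAP1) and through it Setdb1, an enzyme that methylates lysine 9 of histone H3, so that the bound DNA is silenced. The best known targets are retrotransposons and imprinted loci, and the genes sit in clusters that grew by duplication. In T cells most of the single genes have no assigned role.

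A core pattern of the KRAB A box was found in the predicted protein of 98 of 128 members (76.6%), and in 93 of 237 genes with a Zfp number below 700 (39.2%). The search used 1 pattern in 1 predicted protein per gene, so a gene without a match may still have the domain. The members had a median of 11 C2H2 matches per protein, with up to 23 in 1 protein and none in 8. One finger each is shown for Zfp707, Zfp738 and Zfp747, by which the family was chosen, and for Zfp758 and Zfp950, the other members with a diet difference past the threshold. The sequences are coding bases, 5′ to 3′ on the gene's strand, from GENCODE M21 transcripts on build GRCm38, and the capitals mark the codons of the cysteines and histidines that bind zinc. The windows lie at chr15:75974691-75974774 (plus strand) for Zfp707, chr13:67671343-67671426 (minus strand) for Zfp738, chr7:127374454-127374537 (minus strand) for Zfp747, chr17:22375249-22375332 (plus strand) for Zfp758 and chr19:61120248-61120331 (minus strand) for Zfp950. Each window is exonic and coding.
Zfp707: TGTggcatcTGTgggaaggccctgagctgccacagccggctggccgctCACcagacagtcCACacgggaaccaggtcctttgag
Zfp738: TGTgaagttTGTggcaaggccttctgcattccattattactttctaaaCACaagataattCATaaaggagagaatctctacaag
Zfp747: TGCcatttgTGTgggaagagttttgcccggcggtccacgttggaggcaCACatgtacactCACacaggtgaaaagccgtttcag
Zfp758: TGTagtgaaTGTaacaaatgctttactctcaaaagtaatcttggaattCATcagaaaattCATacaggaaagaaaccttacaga
Zfp950: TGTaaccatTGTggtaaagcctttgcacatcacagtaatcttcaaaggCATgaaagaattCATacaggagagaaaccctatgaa
The windows were picked by a pattern with fixed spacing, so the capitals fall at the same 4 places in all 5 windows by choice. The bases between them, which include those for the residues that meet DNA, differ. Zfp707 had 7 C2H2 matches in 384 residues and no match to the KRAB core. The other 4 matched the KRAB core, with 20 C2H2 matches in Zfp738, 9 in Zfp747, 12 in Zfp758 and 17 in Zfp950.

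Duplicated genes share sequence, and reads from a shared stretch cannot be given to 1 copy. In 32 members at least 10% of the 100-base windows of their transcripts were also present in another gene's transcripts, and in 62 members no window was shared. Among the genes described below, Zfp969 shared 100% of its windows (most with Zfp966), Zfp987 shared 70.8% (most with Gm8935) and Zfp960 shared 68.3% (most with Zfp97), so their values are uncertain. Zfp972 shared 32.0%, Zfp984 30.9%, Zfp970 17.4%, Zfp747 10.5% and Zfp738 shared 3.96%, while Zfp707, Zfp758 and Zfp950 shared none. A further limit is that 33 members overlap an exon of another gene, and the strandedness of the libraries is not stated: for Zfp738, 9.95% of exonic bases lie under another gene.

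Promoters were taken from RefSeq on build GRCm38.p6, as 250 bases before to 50 bases after each start site, and 109 of 128 members had an entry. The 95 promoters of 81 members that passed the filter on low counts held a median of 10 CG dinucleotides in 300 bases. The median was 20 over 12002 promoters of the 9456 genes that passed the filter and had an entry. At least 1 CG was present in 100% of those member promoters and in 99.2% of the larger set. CG reads the same on both strands. Zfp758 and Zfp950 are shown because they were called and lie on both sides of the member median, with 20 and 9 CG dinucleotides, here in capitals. The promoter of Zfp758 spans chr17:22361213-22361512 (plus strand) and that of Zfp950 spans chr19:61140791-61141090 (minus strand).
Zfp758: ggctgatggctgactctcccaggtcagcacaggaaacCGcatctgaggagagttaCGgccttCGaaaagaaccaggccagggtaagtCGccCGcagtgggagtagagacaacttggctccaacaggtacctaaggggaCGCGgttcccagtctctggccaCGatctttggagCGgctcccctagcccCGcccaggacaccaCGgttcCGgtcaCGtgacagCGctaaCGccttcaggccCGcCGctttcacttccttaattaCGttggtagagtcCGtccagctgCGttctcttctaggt
Zfp950: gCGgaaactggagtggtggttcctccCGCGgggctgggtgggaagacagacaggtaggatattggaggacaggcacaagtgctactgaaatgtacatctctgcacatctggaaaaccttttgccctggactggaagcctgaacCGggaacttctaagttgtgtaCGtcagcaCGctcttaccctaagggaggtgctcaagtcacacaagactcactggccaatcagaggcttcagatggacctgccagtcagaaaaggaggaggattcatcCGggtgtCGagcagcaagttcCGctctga
The Zfp758 promoter has its CG dinucleotides spread over its length, and the count for Zfp950 is close to the member median. No methylation or binding was measured, so the match is only a description of the letters.

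Library totals ran between 12098521 and 14953662 counts in SW, 13042136 and 15998232 in HFD, and 11947339 and 16398340 in ND. All 6 CD8 T cell markers were abundant, with summed levels of 4624 to 5044 CPM (counts scaled to the size of the library) in SW, 4579 to 5131 CPM in HFD and 4631 to 5103 CPM in ND. The 8 B cell markers summed to 506 to 618 CPM in SW, 525 to 682 CPM in HFD and 481 to 534 CPM in ND, of which Ighm, which encodes an antibody heavy chain, made 451 to 644 CPM over all libraries, while Pax5, a transcription factor that defines B cells, did not exceed 0.512 CPM. Markers of myeloid cells summed to 16.5 to 28.4 CPM in SW, 27.0 to 34.4 CPM in HFD and 18.2 to 26.9 CPM in ND, so every HFD library was above every ND library, while hemoglobin and other erythroid genes summed to 29.1 to 83.5 CPM in SW, 11.4 to 331 CPM in HFD and 14.1 to 39.8 CPM in ND. In bulk RNA, fewer cells of a type and less RNA per cell cannot be told apart.

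Most of the family was present at low to moderate levels. Of the 128 members, 123 had at least 1 read, 5 had none (Zfp711, Zfp735, Zfp935, Zfp978 and Zfp986), and 93 passed the filter. The median over the 93 was 2.83 FPKM, which is corrected for length, against 5.80 FPKM over all 13690 genes that passed. A mean of at least 1 FPKM was reached by 81 members and of at least 10 FPKM by 8. The 35 members that did not pass had means up to 0.227 FPKM.

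**Figure D1:**
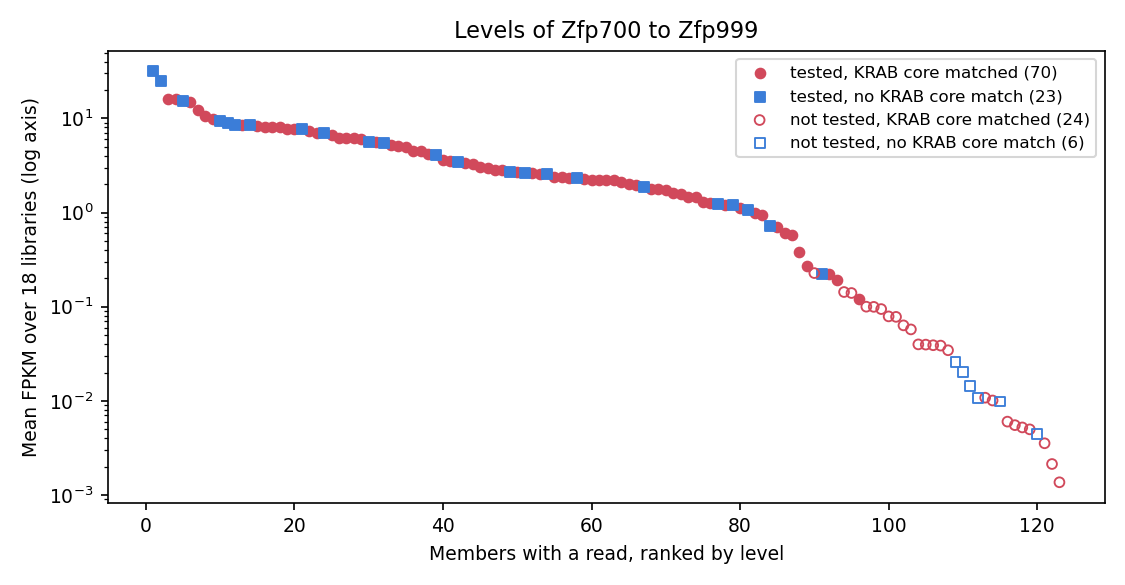
Mean FPKM over 18 libraries (log axis) of the 123 members with a read, ranked by level. Filled symbols passed the filter on low counts (93), open symbols did not, and circles mark a match to the KRAB core. The highest member, Zfp740, has 31.6 FPKM, and squares, which lack the match, take the first 2 ranks.

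The 2 most abundant members per length were Zfp740, with 32.0 ± 0.864 FPKM in SW, 30.7 ± 0.988 FPKM in HFD and 32.1 ± 1.67 FPKM in ND (SD, n = 6 each), and Zfp706, with 24.7 ± 1.04, 24.1 ± 1.48 and 26.3 ± 1.49 FPKM in the same order of diets. Neither matched the KRAB core, and they had 2 and 1 C2H2 matches. Zfp871, Zfp984, Zfp830 and Zfp777 followed with means of 16.1, 15.9, 15.1 and 14.9 FPKM over all libraries. Their neighbours in this order did not differ beyond their spread between libraries: in HFD, for example, Zfp871 had 15.1 ± 1.49 FPKM and Zfp984 had 14.9 ± 1.65 FPKM. Zfp830, a protein needed by early mouse embryos and tied to RNA processing, has 1 C2H2 match. Zfp869 averaged 12.1 FPKM and Zfp809 10.7 FPKM. Zfp809 is known for starting the silencing of retroviral DNA in mouse embryonic cells, where it reads the primer binding site of murine leukemia viruses. Its level was 27.9, 29.7 and 31.3 CPM (lowest, median, highest) in SW, 26.8, 31.1 and 33.9 CPM in HFD and 26.8, 32.5 and 34.9 CPM in ND, and the 3 diets overlapped. Zfp746, also called PARIS and known as a repressor of the PGC-1alpha gene, averaged 8.59 FPKM and was among the 3 least variable members, with a biological coefficient of variation of 0.0670. The 4 members with the most counts held 26.0% of the family's CPM.

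Across the family, levels were lower in HFD than in ND. The summed level of all 128 members was 2039.9, 2103 and 2255 CPM (lowest, median, highest of 6) in SW, 1929, 2005 and 2049.5 CPM in HFD and 2116, 2147 and 2188 CPM in ND. Every HFD library lay below every ND library, and SW overlapped both. The means were 2119.99 ± 86.0 CPM in SW, 1995.1 ± 48.5 CPM in HFD and 2149 ± 26.3 CPM in ND (SD, n = 6 each), so the HFD mean differed from the ND mean by -7.16%. The difference was -6.78% without Zfp707, Zfp738 and Zfp747, and -8.56% as a share of the deposited counts with no scaling factor. It was -7.16% within replicates 1 and 2 alone and also -7.16% within replicates 3 to 6 alone. A score over the members has no test here.

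**Figure D2:**
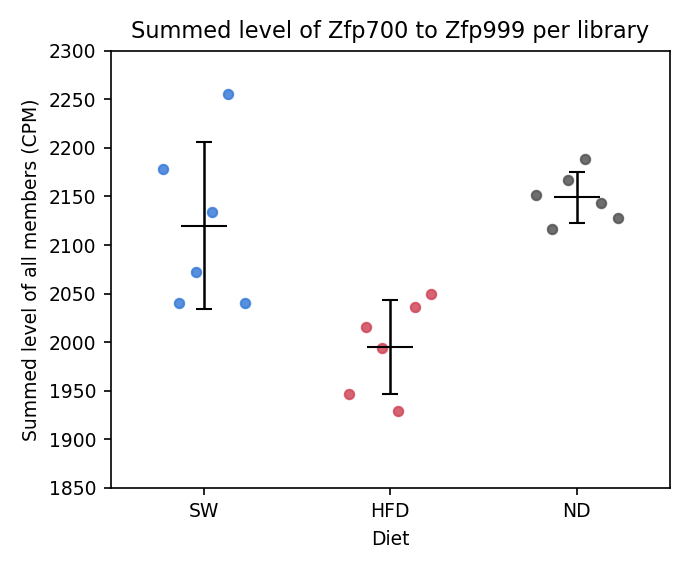
Summed level of the 128 members in CPM for each library of SW, HFD and ND, with black bars for the mean and SD of 6 libraries. The axis does not start at 0. All 6 HFD libraries (1929 to 2049.5 CPM) lie below all 6 ND libraries (2116 to 2188 CPM), and SW spans 2039.9 to 2255 CPM.

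Member by member, 72 of the 93 that passed the filter had a fitted fold change below 0 in HFD against ND, that is 77.4%, where 47.6% of all 13690 genes did. The median log2 fold change of the 93 was -0.12, against 0.01 over all genes, and leaving out the 3 that prompted the choice it was -0.11, with 69 of 90 lower. The middle of the distribution, between its quartiles, ran from -0.23 to -0.01 for the 93 members and from -0.09 to 0.11 for all genes. The shift was small for single genes. Besides those 3, Zfp758 alone was called, in the lower direction, at an edgeR quasi-likelihood adjusted p under 0.05, which is 1 of 90 beside 1.62% of all genes called and 0.957% called lower. DESeq2 called 4 of the 94 it gave an adjusted p (Zfp758, Zfp770, Zfp790 and Zfp830), beside 3.01% of all genes, and limma-voom called 5 of 90 (those 4 and Zfp868), beside 2.62%. At an unadjusted p under 0.05 in edgeR there were 20 of 90 (22.2%), where all genes gave 14.9%. Of all 93, every HFD library was below every ND library for 5 members (Zfp707, Zfp758, Zfp830, Zfp954 and Zfp969), while 1.00% of all genes showed this. The last count includes Zfp707, whose level is part of the reason for the choice. The direction was mixed among the scarce members: of the 30 with reads that did not pass the filter, 14 had a lower mean in HFD than in ND.

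Zfp genes numbered below 700 were also mostly lower in HFD. They had 140 of 197 below 0 in HFD against ND, with a median of -0.10. Of the 197, 6 were called lower, beside 0.957% of all genes. At an unadjusted p under 0.05 in edgeR there were 52 of 197 (26.4%), beside 14.9% of all genes. Members with the KRAB core had 56 of 70 below 0 and a median of -0.14, and members without it had 16 of 23 and -0.07. In the lower-numbered genes the same split gave 59 of 77 with a median of -0.14 and 81 of 120 with a median of -0.08. The difference between members with and without the match was not tested. Members above the median level had 39 of 46 below 0 (median -0.13) and those at or below it 33 of 47 (median -0.09). The count was 60 of 76 with a median of -0.11 where under 10% of windows were shared with another gene, and 12 of 17 with a median of -0.14 where more was shared. These splits of the members include Zfp707, Zfp738 and Zfp747, by which the family was chosen.

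Markers of other cells moved in the same comparison. In HFD against ND, 6 of 6 myeloid markers that passed the filter had a fitted fold change above 0 (median 0.84, 0 called), as did 5 of 5 erythroid markers (median 1.98, 0 called) and 5 of 5 B cell markers (median 0.29, with Ighm called higher). The CD4 T cell list had 4 of 5 above 0 (median 0.42, with Ctla4 called higher), the plasma cell list 3 of 3 (median 0.58, 0 called) and the NK list 2 of 3 (median 0.22, 0 called). The CD8 T cell list had 4 of 6 above 0, with a median of 0.04 and 0 called. Of all genes 1.62% were called, and 14.9% had an unadjusted p under 0.05 in edgeR. At that unadjusted threshold stood 4 of 6 myeloid, 5 of 5 erythroid, 2 of 3 plasma cell and 2 of 5 CD4 T cell markers. The B cell list had 1 of 5, the NK list 0 of 3 and the CD8 T cell list 0 of 6. The part of these other cells in the lower Zfp levels was not tested.

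In SW against ND, 56 of 93 members were below 0 (60.2%), beside 49.1% of all genes, and the median was -0.03 against 0.00. Without the 3 genes of the choice, 55 of 90 were below 0, with a median of -0.03. Besides the 3 genes of the choice, 0 of 90 were called by edgeR's quasi-likelihood test at an adjusted p under 0.05, where 0.0146% of all genes were. At an unadjusted p under 0.05 there were 10 of 90, beside 6.81% of all genes. DESeq2 called 1 of 88 (Zfp987), beside 0.351% of all genes, and limma-voom called 0 of 90, beside 0.212%. In SW against HFD, 68 of 93 members were above 0, beside 48.7% of all genes, with a median of 0.07 against 0.00. Without the 3 genes of the choice, 66 of 90 were above 0, with a median of 0.07. Besides the 3 genes of the choice, 0 of 90 were called, where 0.124% of all genes were called and 0.0584% were called higher. At an unadjusted p under 0.05 there were 14 of 90, beside 11.1% of all genes. DESeq2 called 4 of 88 (Zfp715, Zfp760, Zfp950 and Zfp987), beside 0.812% of all genes, and limma-voom called 0 of 90, beside 0.0584%. Every SW library was above every HFD library for Zfp707, Zfp738 and Zfp950, which is 3 of 93 with 2 of them part of the choice, beside 0.373% of all genes. The lower-numbered Zfp genes had 140 of 197 above 0 with a median of 0.07. HFD libraries enter both this comparison and HFD against ND, so the 2 are not independent.

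**Figure D3:**
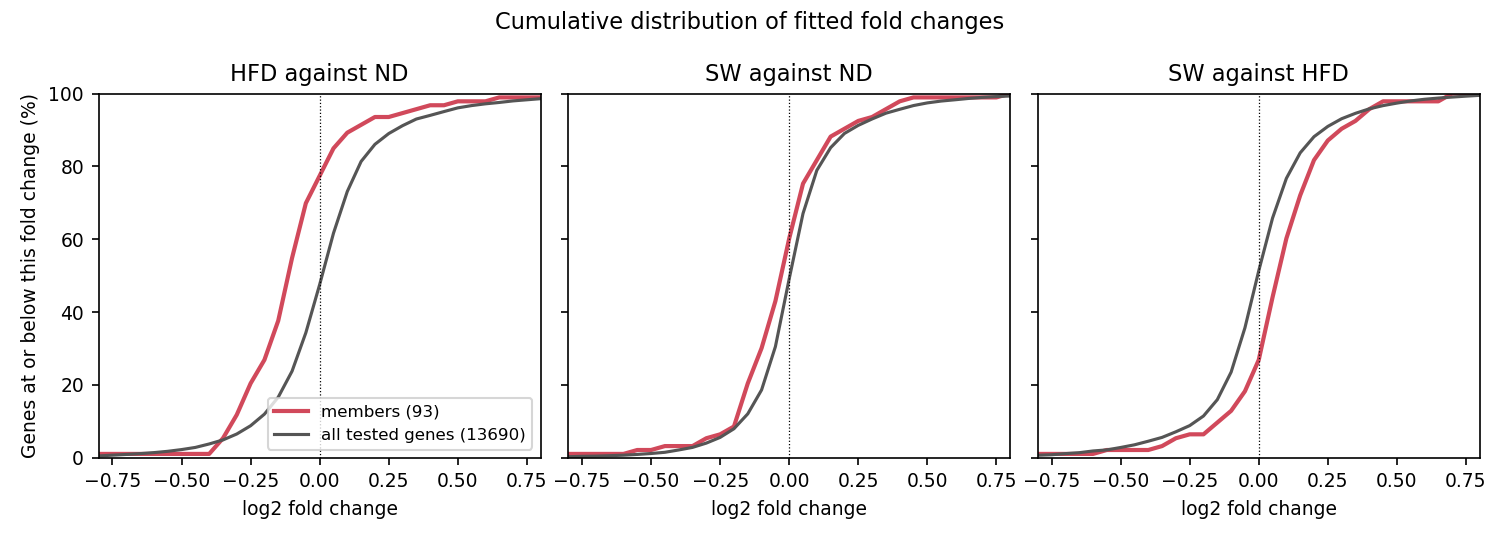
Cumulative share of genes (%) at or below each log2 fold change in HFD against ND, SW against ND and SW against HFD, for the 93 members that passed the filter (red) and all 13690 genes (grey). The red line lies left of the grey one near 0 in HFD against ND (77.4% of members below 0) and right of it in SW against HFD.

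By chromosome, 24 members lay on chromosome 7, 21 on 17, 16 on 4, 14 on 8, 13 on 2 and 10 on 13. Mouse clusters on chromosomes 2, 4 and 13 are known for recent duplications and for silencing retrotransposons. They differed in how many of their genes were measured: 6 of 16 members on chromosome 4 and 8 of 13 on chromosome 2 passed the filter, beside 19 of 21 on chromosome 17 and 19 of 24 on chromosome 7. In HFD against ND all 8 tested members on chromosome 13 were below 0 (median -0.17), as were 15 of 19 on chromosome 7 (median -0.14), 15 of 19 on chromosome 17 (median -0.12), 10 of 12 on chromosome 8 (median -0.12) and 6 of 8 on chromosome 2 (median -0.15). On chromosome 4, 3 of 6 were below 0 (median -0.03). The counts for chromosomes 13 and 7 include Zfp738 and Zfp747, by which the family was chosen. The difference between chromosomes was not tested, and genes on 1 chromosome can share sequence.

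**Figure D4:**
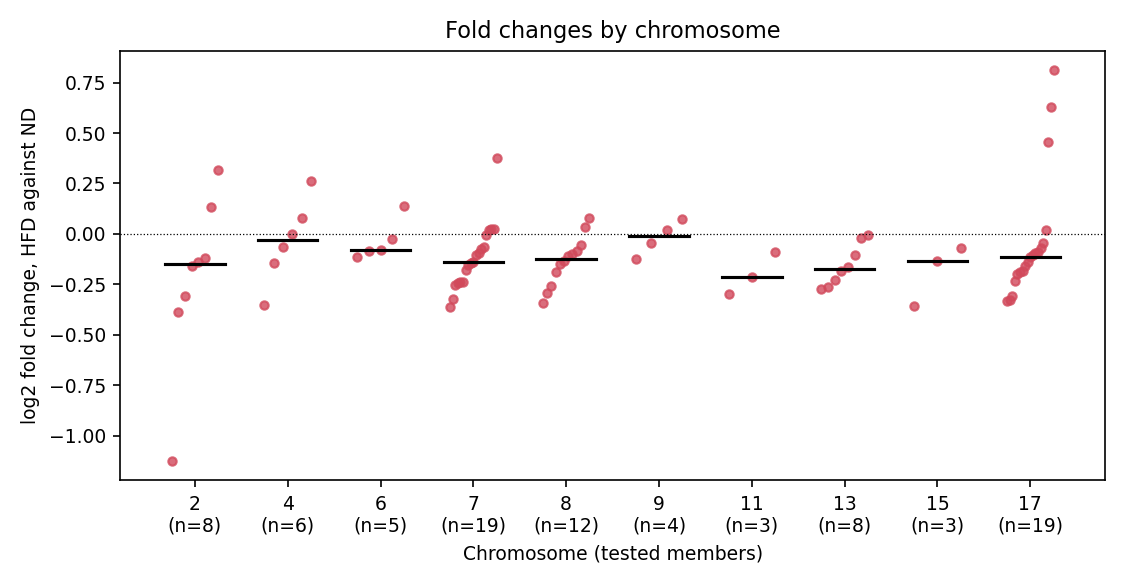
Log2 fold change in HFD against ND of each tested member (points), by chromosome, for chromosomes with at least 3 tested members, with a black line at the median. All 8 points on chromosome 13, Zfp738 among them, lie below 0. The 3 highest points, all on chromosome 17, are the scarce genes Zfp811, Zfp960 and Zfp870.

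Zfp707, Zfp738 and Zfp747, by which the family was chosen, did not share 1 pattern. Zfp707 (chr15:75969123-75975868) had 22.5, 26.1 and 30.3 CPM (lowest, median, highest) in SW, 17.3, 19.5 and 21.4 CPM in HFD and 23.7, 24.5 and 28.4 CPM in ND. All HFD libraries were below all others, and SW and ND overlapped. The fitted log2 differences were -0.36 ± 0.08 (SE) for HFD against ND, 0.07 ± 0.08 for SW against ND and 0.42 ± 0.08 for SW against HFD.

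Zfp738 (chr13:67658685-67687071), a KRAB gene on chromosome 13, had 33.9, 35.5 and 40.5 CPM in SW, 23.4, 29.0 and 31.5 CPM in HFD and 30.9, 32.7 and 35.2 CPM in ND. SW lay above HFD with no overlap, and ND overlapped both. Its fitted log2 differences were -0.23 ± 0.07 (SE) for HFD against ND, 0.14 ± 0.07 for SW against ND and 0.36 ± 0.07 for SW against HFD.

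Zfp747 (chr7:127372537-127376050), also a KRAB gene, was lowest in SW. Its levels were 11.0, 13.6 and 15.7 CPM in SW, 11.8, 16.1 and 22.3 CPM in HFD and 18.05, 19.5 and 22.1 CPM in ND. Every SW library was below every ND library, while HFD overlapped both. Within HFD, replicates 1 and 2 had 22.3 and 20.8 CPM and replicates 3 to 6 had 11.8 to 17.6 CPM, so the HFD value depends on which libraries are taken. The fitted log2 differences were -0.25 ± 0.12 (SE) for HFD against ND, -0.57 ± 0.13 for SW against ND and -0.32 ± 0.13 for SW against HFD, which was -0.21 without HFD replicate 1.

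**Figure D5:**
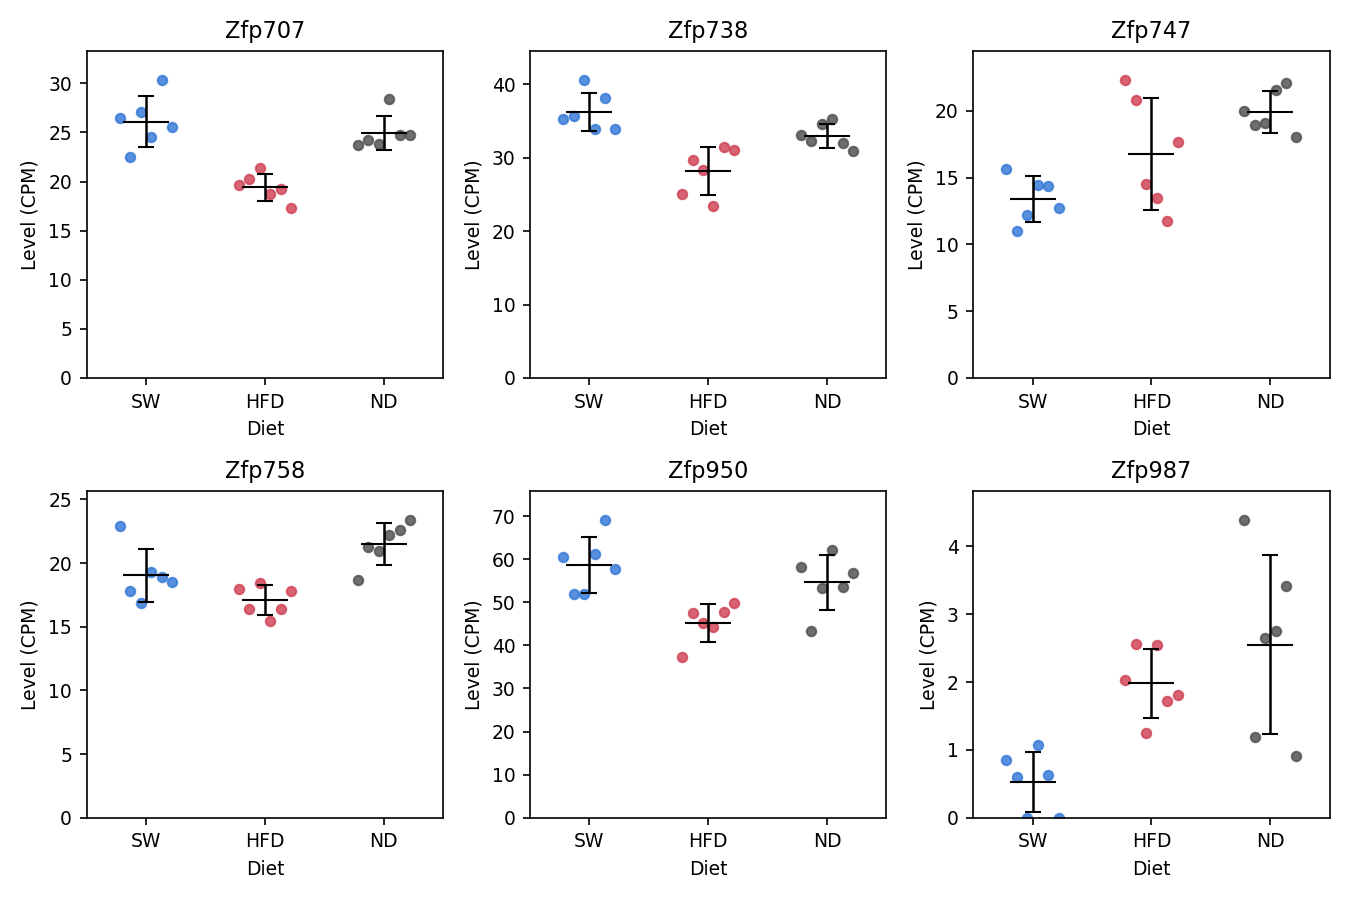
Levels in CPM of Zfp707, Zfp738, Zfp747, Zfp758, Zfp950 and Zfp987 in each library of SW, HFD and ND, placed by replicate number, with black bars for the mean and SD of 6 libraries. Zfp707 is lowest in HFD, Zfp747 is lowest in SW with 2 high HFD libraries (22.3 and 20.8 CPM), and Zfp987 lies at 0 to 1.08 CPM in SW.

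Zfp758 (chr17:22361453-22377281), a KRAB gene with no role that could be stated here, had 16.9, 18.7 and 22.9 CPM (lowest, median, highest) in SW, 15.5, 17.1 and 18.4 CPM in HFD and 18.7, 21.7 and 23.4 CPM in ND. HFD lay below ND with no overlap, and SW overlapped both. The log2 fold change of HFD against ND was -0.33 ± 0.08 (SE), lower in 6 of 6 HFD libraries, with an edgeR adjusted p of 0.0397. The call was kept in 9 of 18 fits that each left out 1 library, with adjusted p up to 0.0890: it was lost without HFD replicate 2, 4, 5 or 6 and without ND replicate 2, 3, 4, 5 or 6. It was also lost with no filter on low counts and with replicates 1 and 2 alone. DESeq2 gave an adjusted p of 0.00962 and limma-voom 0.0273. SW against ND was -0.17 ± 0.08 and was not called (edgeR adjusted p = 0.722).

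Zfp950 (chr19:61053840-61140840), a KRAB gene, was the only other member besides the 3 to pass the threshold in a main test. Its levels were 51.8, 59.0 and 69.0 CPM in SW, 37.3, 46.3 and 49.8 CPM in HFD and 43.4, 55.1 and 62.2 CPM in ND. SW lay above HFD with no overlap, and 1 ND library (43.4 CPM) fell within the HFD range. The edgeR test of any difference among the 3 diets gave an adjusted p of 0.0455, which is 1 of 90 beside 0.898% of all genes. The pairwise values were 0.37 ± 0.08 (SE) for SW against HFD (edgeR adjusted p = 0.0559) and -0.27 ± 0.08 for HFD against ND (edgeR adjusted p = 0.0915), neither of which passed. Of 18 fits that each left out 1 library, 4 kept the call, those without ND replicate 2 or 4 and those without SW replicate 2 or 3, and adjusted p reached 0.0888 in the others. The adjusted p was 0.00667 by DESeq2, 0.0557 by limma-voom and 0.0320 by edgeR in replicates 3 to 6 alone.

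Several members came close to the threshold in 1 comparison. Zfp830 had 20.05, 22.6 and 25.7 CPM in SW, 17.6, 21.8 and 23.9 CPM in HFD and 24.2, 25.7 and 28.7 CPM in ND. HFD was below ND with no overlap, at a log2 fold change of -0.30 ± 0.08 (SE) and an edgeR adjusted p of 0.0612. Zfp760, a KRAB gene on chromosome 17, had 7.18, 9.75 and 12.2 CPM in SW, 5.05, 5.90 and 7.82 CPM in HFD and 5.21, 7.98 and 9.75 CPM in ND. The diets overlapped, and SW against HFD was 0.68 ± 0.16 (edgeR adjusted p = 0.0722). Zfp790 on chromosome 7 had 13.8, 14.7 and 16.5 CPM in SW, 11.9, 13.8 and 20.5 CPM in HFD and 15.96, 18.8 and 21.4 CPM in ND, with HFD against ND at -0.36 ± 0.11 (edgeR adjusted p = 0.0847). The highest HFD value of Zfp790 came from replicate 1. Zfp770 had 14.0 to 16.8 CPM in HFD and 16.8 to 22.3 CPM in ND. It was not called in the main fit, but was called in HFD against ND by DESeq2 and with RLE or upper-quartile size factors.

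Most of the largest fitted fold changes belonged to scarce members, where few reads carry each value. Zfp987 on chromosome 4 had 0, 0.613 and 1.08 CPM in SW, 1.24, 1.92 and 2.56 CPM in HFD and 0.915, 2.70 and 4.38 CPM in ND. In 2 SW libraries it had no read. SW was below HFD with no overlap and overlapped ND, at -1.92 ± 0.51 (SE) against HFD and -2.28 ± 0.51 against ND, neither called (edgeR adjusted p = 0.144 and 0.123). Zfp969 on chromosome 2 had 0.529, 0.982 and 1.90 CPM in SW, 0.326, 0.700 and 0.935 CPM in HFD and 1.05, 1.33 and 1.88 CPM in ND. Its HFD libraries were below its ND libraries with no overlap, at -1.12 ± 0.34 (edgeR adjusted p = 0.0850). Both share most of their sequence with another gene. On the higher side in HFD against ND stood Zfp870 (0.81 ± 0.35), Zfp960 (0.63 ± 0.45) and Zfp811 (0.45 ± 0.36), all at 1.31 CPM or less on average and none called (edgeR adjusted p = 0.274, 0.543 and 0.595). Leaving out 1 library moved 2 of these values by over 1.5 times: Zfp960 had 0.29 without HFD replicate 2 and Zfp811 had 0.29 without HFD replicate 5. Zfp970 on chromosome 2 had -0.38 ± 0.20 in HFD against ND (edgeR adjusted p = 0.384), and Zfp972 had -0.55 ± 0.41 in SW against HFD (edgeR adjusted p = 0.640), which was -0.30 without HFD replicate 4.

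The spread between libraries differed widely among members. The biological coefficient of variation, the spread between libraries beyond counting error, had a median of 0.127 over the 93 members and 0.112 over all tested genes. The steadiest were Zfp746 (0.0670) and the abundant Zfp740 and Zfp706. The most variable were Zfp987 (0.487), Zfp768 (0.483) and Zfp976 (0.416). Zfp768 had 0.140, 0.447 and 0.910 CPM in SW, 0.0652, 0.554 and 0.951 CPM in HFD and 0, 0.570 and 1.13 CPM in ND, so the diets overlapped throughout.

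No listed partner gene of KRAB proteins was called by edgeR. The KRAB corepressor list holds 14 genes, with Trim28, Setdb1, the HP1 proteins and the NuRD subunits, and 0 were called in any of the 3 comparisons. Of all genes 1.62% were called in HFD against ND, 0.0146% in SW against ND and 0.124% in SW against HFD. In a list this short, 0 calls is near those shares. The median log2 fold change of the list in HFD against ND was -0.01, with 7 of 14 below 0, beside 47.6% of all genes. At an unadjusted p under 0.05 there were 1 of 14 in HFD against ND, 0 in SW against ND and 3 in SW against HFD. The shares of all genes were 14.9%, 6.81% and 11.1% in that order. Trim28, the scaffold that KRAB domains bind, had 209 to 251 CPM in SW, 236 to 282 CPM in HFD and 240 to 262 CPM in ND, and the log2 fold change of HFD against ND was 0.02 ± 0.05 (SE). The 4 genes of smallest p in HFD against ND were Setdb1 (-0.14 ± 0.05), Cbx5 (0.12 ± 0.06), Hdac1 (-0.09 ± 0.04) and Chd4 (0.10 ± 0.06), with edgeR adjusted p of 0.197, 0.349, 0.367 and 0.515. None of the 6 HUSH and MORC genes, which silence repeats together with Setdb1, was called in any comparison by edgeR. Nor was any of the 11 genes of histone H3 lysine 9 and DNA methylation. The list medians in HFD against ND were -0.01 and -0.05 in that order. Each list had 1 gene at an unadjusted p under 0.05 there, beside 14.9% of all genes.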

How the data were processed

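Messenger RNA of splenic CD8 T cells was sequenced in 18 libraries, 6 for each diet, after poly-T selection and random priming per the labels' protocols. fastp and the genome build GRCm38 (mm10) are listed in the submitters' processing notes, and the aligner, counter and gene models were not given in the sources used here. Files the authors deposited hold raw counts per gene, with no normalization, and FPKM values, which are per length and per library. Symbols come from GENCODE M21, which held 52073 of the 56748 IDs.

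Counts of all genes were fitted together with diet as the only factor by the edgeR 4.0.16 quasi-likelihood F test in R 4.3.3, with TMM factors, filterByExpr and a robust fit. Adjusted p-values are Benjamini-Hochberg over the 13690 genes that passed. Log2 fold changes carry the standard error of the fit, and CPM values use TMM factors. The fit was tested on simulated data with 50 genes changed at each fold: in HFD against ND it recovered 30% of genes changed 1.25-fold and 72% of those changed 1.5-fold. Copies made by PCR carry no mark, so true errors can exceed counting error. No 2 libraries of a diet agreed within sampling noise (lowest chi-square per gene 4.85).

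The members and lists were chosen with earlier results of these data known. Genes named are Zfp707, Zfp738 and Zfp747, other called members, the 8 of highest mean FPKM, the 3 largest fold changes each way per comparison, the 3 most and least variable, and the 3 that differ most each way between replicates 1 and 2 and replicates 3 to 6. Other genes named in a count of 5 or fewer, or among calls of another tool, were chosen after their values were seen. Alternatives were DESeq2 1.42.0, limma 3.58.1 (voom, and log2 FPKM plus 0.1 or 1), other size factors and filters, the replicate number as a block, subsets of libraries and leaving out each library.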

Additional observations from a re-analysis of the deposited data

Results flagged for a closer look

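In 93 groups of 6 libraries, 5 single values stood apart from the rest of their diet by Dixon's test, and chance flags about 1 in 20 groups. Zfp707 had 28.4 CPM in ND replicate 4, where the nearest ND library had 24.8 CPM. Zfp871 had 130 CPM in HFD replicate 1, below the nearest HFD library at 162 CPM. Zfp790 had 20.5 CPM in HFD replicate 1, above the nearest at 14.7 CPM. Both of the last values come from the same library and point in opposite directions. Zfp712 had 12.6 CPM in SW replicate 1, above the nearest at 8.06 CPM, and the scarce Zfp960 had 0.280 CPM in SW replicate 5, below the nearest at 0.680 CPM.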

How the results depend on the processing

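The median fold changes of the members kept their direction in all 3 comparisons under every alternative run: -0.14 to -0.08 for HFD against ND, -0.06 to -0.01 for SW against ND and 0.05 to 0.11 for SW against HFD. The summed level in HFD differed from ND by -8.56% to -6.55%. Counts of called members depended on the setting, and the cause was not tested. The counts in this paragraph leave out Zfp707, Zfp738 and Zfp747. Of 90 members, the main fit called 1 in HFD against ND, 0 in SW against ND and 0 in SW against HFD. The test of all diets together called 1. The shares of all genes were 1.62%, 0.0146%, 0.124% and 0.898% in that order. In the same order, DESeq2 called 4 of 94, 1 of 88, 4 of 88 and 6 of 86, beside 3.01%, 0.351%, 0.812% and 3.29% of all genes. By limma-voom there were 5, 0, 0 and 2 of 90, beside 2.62%, 0.212%, 0.0584% and 1.61%. A factor for replicates 1 and 2 against the other 4 gave 7, 0, 2 and 5 of 90, beside 3.91%, 0.161%, 0.847% and 3.24% of all genes. With no filter there were 1, 0, 2 and 2 of 120, beside 0.833%, 0.108%, 0.185% and 0.753% of all genes. Only the diets compared gave 0 of 86 in SW against ND, beside 0.144% of all genes, and 0 of 88 in SW against HFD, beside 0.00%. In SW against HFD limma on log2 FPKM plus 0.1 or 1 also gave 0 of 90, beside 0.00730% of all genes. Replicates 1 and 2 alone gave 0, 0, 0 and 0 of 91, beside 0.0361%, 0.00%, 0.0144% and 0.0361% of all genes. Replicates 3 to 6 alone gave 3, 0, 1 and 2 of 89, beside 1.47%, 0.0365%, 0.168% and 0.978%. RLE size factors gave 2 of 90 in HFD against ND (Zfp758 and Zfp770), beside 1.60% of all genes. The same 2 were called with upper-quartile size factors, beside 1.72%, and with a filter of 1 CPM in 6 libraries, beside 1.87%. With replicates 1 and 2 alone Zfp811 turned to -0.14 in HFD against ND and -0.66 in SW against ND.

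Leaving out each library in turn was counted over all 93 members. These counts include Zfp707, Zfp738 and Zfp747, so they are a description with no test. In HFD against ND there were 1 to 5 calls, with 5 without HFD replicate 1, beside 2.18% of all genes. The count was 1 without HFD replicate 2, 4, 5 or 6, beside 0.918%, 1.05%, 1.44% and 0.849% of all genes. It was also 1 without ND replicate 3, 5 or 6, beside 0.788%, 0.643% and 0.958%. In SW against ND there were 0 to 1, with 1 without HFD replicate 1, beside 0.116% of all genes. In SW against HFD there were 0 to 3. The count was 0 without HFD replicate 2, 4 or 6, beside 0%, 0.0290% and 0% of all genes. It was also 0 without ND replicate 3 (0.0145% of all genes) or SW replicate 3, 4 or 5 (0% each). It was 1 without HFD replicate 3 (0.0434%) or ND replicate 5 (0.0289%), and 3 without ND replicate 2 (0.160%) or 4 (0.152%). In the test of all diets together, Zfp950 kept its call in 4 of these 18 fits.

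The labels do not say that same-numbered libraries are paired. The correlations of their deviations ran from -0.03 to 0.22: they were above 0.1 in all 3 comparisons for replicates 1 and 2 but not for every number. A library correlated best with its own number in 13 of 36 cases, each a choice among the 6 libraries of another diet. With the replicate number as a block there were 8, 2, 6 and 9 calls over all 93 members in the same order. These counts include calls of Zfp707, Zfp738 or Zfp747, so they are a description with no test. Without those 3 genes there were 7, 1, 4 and 6 of 90, beside 4.37%, 0.358%, 1.01% and 3.43% of all genes. The family medians with the block were -0.12 in HFD against ND, -0.03 in SW against ND and 0.08 in SW against HFD. Scarce members are limited by depth, as at under 1 CPM a library holds few reads of a gene.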

Other observations

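The labels give no batch, but replicates 1 and 2 can be set beside replicates 3 to 6 across all diets, a split chosen with earlier results of these data known. The members with the largest differences, on a log2 scale with 0.5 CPM added, were Zfp719 (0.48), Zfp953 (0.37) and Zfp712 (0.34) on the higher side in replicates 1 and 2, and Zfp811 (-0.48), Zfp948 (-0.44) and Zfp934 (-0.34) on the lower side. Zfp719, for example, averaged 8.86 CPM in replicates 1 and 2 and 6.28 CPM in replicates 3 to 6, and Zfp811 averaged 0.904 CPM and 1.51 CPM. These are values with no test. Within each of the sets the members leaned the same way in HFD against ND: 70 of 94 were below 0 in replicates 1 and 2 and 66 of 92 in replicates 3 to 6. The medians were -0.14 and -0.13, beside 0.004 and 0.002 over all genes of the same fits. Both counts include Zfp707, Zfp738 and Zfp747.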
